A study of Mus musculus with 2 samples.

Results

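Cytochrome P450 enzymes are heme proteins that insert 1 oxygen atom into fatty acids, sterols, vitamins, retinoids and foreign compounds. They take electrons from P450 oxidoreductase in the endoplasmic reticulum, or from ferredoxin in mitochondria. The adrenal gland is best known for a few of them that turn cholesterol into steroid hormones, while the large families of the liver clear drugs and other foreign molecules. The genes described here are the mouse P450 genes outside that steroid route. They were taken by symbol from GENCODE vM21, as every protein-coding gene named Cyp, a number, a letter and a number, without Cyp11a1, Cyp11b1, Cyp11b2, Cyp17a1 and Cyp21a1. The rule gave 88 of 21805 protein-coding genes, none of them chosen by a measured value.

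Accessible chromatin was mapped by DNase-seq, in which the nuclease DNase I cuts exposed DNA in nuclei. The tissue was adrenal gland of adult male B6CASTF1/J mice, an F1 hybrid strain, at 18 to 20 months of age. There were 2 libraries, labelled biological replicates 1 and 2, which formed 1 group with no other condition, so no test was made and values stand with their spread over the libraries. The labels give both libraries 1 donor entry and do not say whether separate animals were used, and that spread may be technical.

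The deposited lists held 98630 peaks in replicate 1 and 118249 in replicate 2, with 65778 regions shared by both. The height of a peak is the authors' depth-scaled DNase signal. Of markers of the tissue, 6 of 9 for adrenal cortex, among them Star and Nr5a1, and 3 of 6 for chromaffin cells had a promoter peak in both libraries. With 64.5% of all protein-coding genes at such a peak, these counts do not set the tissue apart. Hsd3b1, Cyp21a1, Mc2r, Th and Pnmt, which define these cells, had none in either library. Of markers of other cells, 5 of 6 endothelial, 4 of 5 fibroblast and mural, 5 of 7 adipocyte, 3 of 6 macrophage, 2 of 6 kidney and 1 of 8 hepatocyte genes (Apoh) had one. In a bulk tissue, a low peak in many cells and a high peak in few cells cannot be told apart.

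Sequences that the results turn on are given first, read from the RefSeq sequence of GRCm38 (mm10) and printed 5′ to 3′ on the strand of the gene. Capitals in this first pair lie under footprints, short stretches protected from DNase I, that overlapped between the libraries. The Cyp46a1 promoter (chr12:108334043-108334282, plus strand) was the tallest of any P450 gene in the set, and the Cyp1b1 region (chr17:79715641-79715860, minus strand) lay upstream of its start.
Cyp46a1: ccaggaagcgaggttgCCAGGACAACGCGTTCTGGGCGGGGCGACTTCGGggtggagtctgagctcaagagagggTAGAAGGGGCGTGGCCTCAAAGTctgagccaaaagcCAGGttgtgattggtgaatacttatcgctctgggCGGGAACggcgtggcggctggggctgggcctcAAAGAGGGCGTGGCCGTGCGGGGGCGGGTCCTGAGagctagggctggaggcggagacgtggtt
Cyp1b1: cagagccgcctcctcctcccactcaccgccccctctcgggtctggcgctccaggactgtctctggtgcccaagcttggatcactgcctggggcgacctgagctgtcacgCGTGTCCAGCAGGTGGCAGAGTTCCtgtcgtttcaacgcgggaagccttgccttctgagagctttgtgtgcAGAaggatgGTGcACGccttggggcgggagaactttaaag

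Promoters of the Cyp4f genes are shown next, because most of them were accessible and their sequences can be aligned. Each stretch is the part that aligned with the last 97 bases before the 5′ end of Cyp4f16, again with footprinted bases in capitals. Cyp4f17, Cyp4f39 and Cyp4f40 are not shown, since they aligned at a lower identity or after their 5′ end. The stretches come from chr17:32947414-32947505 (minus strand), chr17:32917384-32917471 (minus), chr17:32685515-32685603 (plus), chr17:32536461-32536557 (plus), chr8:72009647-72009740 (minus) and chr17:32621156-32621252 (plus), in the order of the lines. Cyp4f18 and Cyp4f37 have no capitals.
Cyp4f13: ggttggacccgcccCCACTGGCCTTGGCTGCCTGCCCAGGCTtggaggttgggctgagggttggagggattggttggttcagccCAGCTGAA
Cyp4f14: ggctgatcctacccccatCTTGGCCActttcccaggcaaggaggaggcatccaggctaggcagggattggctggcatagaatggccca
Cyp4f15: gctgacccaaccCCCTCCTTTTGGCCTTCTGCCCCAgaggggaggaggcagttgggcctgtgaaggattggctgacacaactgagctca
Cyp4f16: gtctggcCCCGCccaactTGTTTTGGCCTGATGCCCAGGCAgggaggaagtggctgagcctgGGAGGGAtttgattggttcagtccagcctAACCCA
Cyp4f18: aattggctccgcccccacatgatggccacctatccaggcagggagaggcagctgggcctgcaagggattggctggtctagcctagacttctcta
Cyp4f37: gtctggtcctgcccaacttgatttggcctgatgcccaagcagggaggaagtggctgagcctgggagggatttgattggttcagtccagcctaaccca

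The last set marks motifs rather than footprints. In Cyp1a1 (chr9:57696413-57696712, plus strand) the capitals are GCGTG on either strand, the core that the aryl hydrocarbon receptor binds with ARNT. In Cyp8b1 (chr9:121916306-121916425, minus strand), a bile acid hydroxylase, the 120 bases before the 5′ end are printed with TATAAA in capitals.
Cyp1a1: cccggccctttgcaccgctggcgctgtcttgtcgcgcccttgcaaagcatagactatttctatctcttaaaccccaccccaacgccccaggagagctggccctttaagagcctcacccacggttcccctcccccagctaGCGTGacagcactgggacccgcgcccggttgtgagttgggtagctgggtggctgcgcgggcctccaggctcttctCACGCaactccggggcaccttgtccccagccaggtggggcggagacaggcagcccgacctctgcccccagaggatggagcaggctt
Cyp8b1: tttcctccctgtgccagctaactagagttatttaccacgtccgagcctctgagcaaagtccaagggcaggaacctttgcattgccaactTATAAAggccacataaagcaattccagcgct

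Fewer P450 genes than genes at large had an accessible promoter. A peak of both libraries lay within 1 kb of a start of 28 of the 88 (31.8%), where 64.5% of all protein-coding genes had one. Another 6 (6.82%) had a peak in 1 library, against 4.39% of all genes. The other 54 had none, and for 36 of these the nearest peak lay over 10 kb from every start in both libraries. Among those 54, Cyp2e1 alone had any position within 1 kb listed at a false discovery rate under 0.05, in replicate 2. Footprints of both libraries lay inside a promoter region of all 28 (31.8% of the 88), where 62.8% of all genes had them. Only genes with a promoter peak in both libraries could have them, and 13704 of the 14069 such genes overall did. These shares thus repeat those of the promoter peaks.

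The split followed the P450 families. Families 1 to 4, which mainly act on fatty acids and foreign compounds, had accessible promoters in 20 of 75 genes (26.7%). Families 5 and above, which mainly act on sterols, vitamins and retinoids, had them in 8 of 13 (61.5%), close to the 64.5% of all genes. Within the first group, 10 of 17 genes of family 4 were accessible, 8 of 48 of family 2, 2 of 3 of family 1 and none of the 7 of family 3. The plot of genes by subfamily shows how far this rests on a few large subfamilies.

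**Figure D1:**
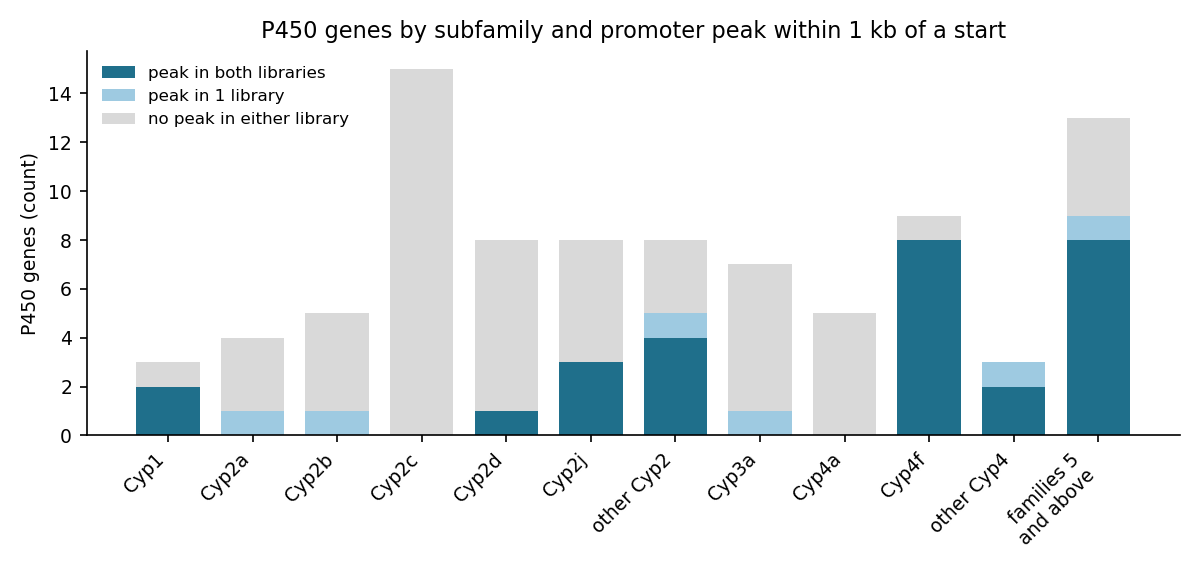
P450 genes by subfamily (bars, count of genes), split by whether a peak lay within 1 kb of a start in both libraries, in 1 library or in neither. None of the 15 Cyp2c, 7 Cyp3a or 5 Cyp4a genes had a peak in both libraries, while 8 of 9 Cyp4f genes did.

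The drug-metabolising subfamilies were closed nearly throughout. Cyp2c, the mouse counterparts of enzymes that oxidise drugs and arachidonic acid in liver, had no promoter peak in either library at any of 15 genes. Cyp3a, the main drug oxidases of liver and gut, had none in both libraries at any of 7, and Cyp4a, the fatty acid omega-hydroxylases that respond to PPARα, at none of 5. No peak of both libraries lay at any of 4 Cyp2a or 5 Cyp2b genes, and Cyp2d had 1 such gene of 8, Cyp2d22. Cyp2e1, the ethanol oxidase, had no peak closer than 41996 bp in replicate 1 or 30344 bp in replicate 2. Cyp1a2, which oxidises caffeine in liver, had its nearest peaks 4538 and 4487 bp away, with heights of 0.483 and 0.435. These peaks lay 313 and 262 bp from the first start of its neighbour Cyp1a1.

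Most of these genes stand in tandem arrays, and 2 of the arrays held no shared region at all. Runs of P450 genes with gaps of at most 500 kb and at least 5 genes numbered 7, and held 64 of the 88 genes. In them 13 genes (20.3%) were accessible, against 15 of the 24 outside them (62.5%). The Cyp2c array (chr19:39007019-40187333) spans 1180 kb with 14 of the genes and held no region shared by both libraries, and only 4 peaks in replicate 1 and 7 in replicate 2. The tallest of these reached 0.308 and 0.435. The Cyp3a array (chr5:145345279-146113287) held no shared region over 768 kb. Across the genome there were 2.41 shared regions per 100 kb. The Cyp2d array had 2 over 424 kb, that of Cyp4a with Cyp4x1 and Cyp4b1 had 3 over 541 kb, and that of Cyp2j had 9 over 637 kb. The array of Cyp2a, Cyp2b and neighbours on chromosome 7, from Cyp2s1 to Cyp2t4, had 21 over 1356 kb, with Cyp2s1 as the 1 accessible gene of 13.

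Tandem copies share sequence, and reads that fit several places can be lost from peaks. Of 32-base words within 1 kb of the 5′ end, a median of 98.5% (74.1% to 100%) occurred once in the genome for the 28 accessible genes, and 81.2% (8.30% to 100%) for the 54 closed genes, against 98.5% for all protein-coding genes. Over the whole arrays the share was 55.3% for Cyp2c and 51.3% for Cyp3a. Within 1 kb of the 5′ end, the 4 Cyp2a genes had a median of 52.05%, with none at 90% or more. Of the 5 Cyp2b genes, 3 had at least 90% and 2 had under 50%. A missing peak at genes with few unique words is therefore weak evidence of a closed promoter. Among the 53 P450 genes with at least 90% unique words, 26 (49.1%) had an accessible promoter, against 73.0% of the 17558 such genes overall. From 50% to 90% it was 2 of 28 (7.14%), Cyp4f16 and Cyp4b1, against 40.7%, and below 50% it was 0 of 7 against 8.94%. The part of lost reads in these counts was not tested.

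CpG content followed the same line. In a window from 250 bases before to 50 after the 5′ end, the median number of CpG was 6 in the 28 accessible P450 genes and 2 in the other 60, against 19 in all accessible genes and 3 in all others. At a given CpG number the P450 genes were near genes at large. With 0 to 1 CpG, 2 of 28 (7.14%) were accessible, against 10.0% of all genes. With 2 to 4 it was 8 of 37 (21.6%) against 26.2%, with 5 to 9 it was 7 of 11 (63.6%) against 54.6%, and with 10 or more 11 of 12 (91.7%) against 93.1%. Among the 7 accessible genes with 5 to 9 CpG, Cyp26b1 and Cyp2w1 were accessible only at starts other than the 5′ end, where CpG was counted. The exception among the CpG-rich genes was Cyp26a1, which had a peak in replicate 2 only.

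**Figure D2:**
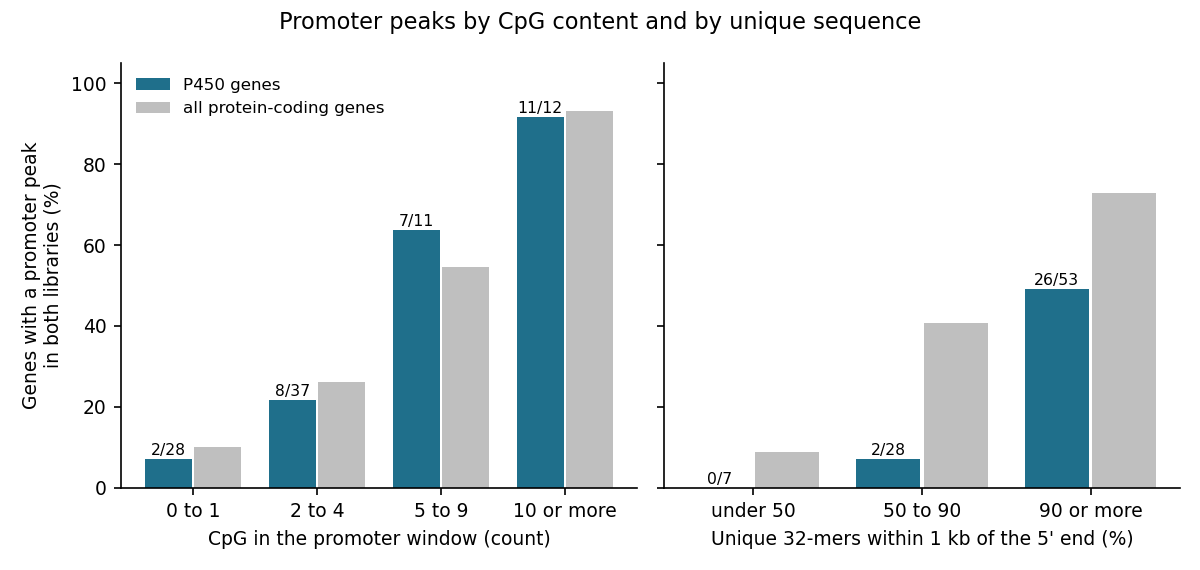
Share of genes with a promoter peak in both libraries (percent), for P450 genes (dark bars, with counts) and all protein-coding genes (grey bars), by number of CpG in the promoter window (left) and by percent of unique 32-base words within 1 kb of the 5′ end (right). P450 genes sit near all genes in each CpG class, from 7.14% to 91.7%, and below them in each class of unique sequence.

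Motifs were counted in the same windows on both strands. These lie at the 5′ end of the gene, which for Cyp26b1 and Cyp2w1 is over 1 kb from any region of both libraries. GGGCGG, bound by SP and KLF factors, stood in the windows of 17 of the 28 accessible P450 genes (60.7%) and 2 of the other 60 (3.33%), against 59.8% of all accessible genes and 12.6% of all others. GCGTG stood in 14 of 28 and 3 of 60, against 48.9% of all accessible genes and 14.9% of all others. For both motifs the accessible P450 genes were thus close to accessible genes at large. TATAAA stood in 2 of 28 (7.14%), Cyp8b1 and Cyp26b1, and in 29 of 60 (48.3%), against 7.56% of all accessible genes and 22.0% of all others. The NR5A1 letters AAGGTCA or AAGGCCA, bound by the nuclear receptor that specifies the adrenal cortex, stood in 6 of 28 (21.4%) and 14 of 60 (23.3%), against 8.64% and 11.9%. CCAAT, bound by NFY, was found in 13 of 28 and 31 of 60, against 38.1% of all accessible genes and 40.9% of all others. TGANTCA was in 5 of 28 and 3 of 60, against 4.93% and 10.54%, and CACGTG in 2 of 28 and 0 of 60, against 9.84% and 3.90%. TGACGTCA was in no P450 window, against 2.43% of all genes. Direct repeats of the nuclear receptor letters AGGTCA with spacings of 1, 3, 4 and 5 bases were in none. Of all 21805 genes only 11, 2, 1 and 1 had them, so their absence does not set the P450 genes apart. Such matches describe the letters only.

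Accessible P450 promoters were mostly low. Their mean height over both libraries had a median of 1.53, against 3.90 for all 14069 genes with a promoter peak in both. Only Cyp46a1, Cyp4f13 and Cyp4f16 were above that median, and 17 of the 28 (60.7%) were at or under 1.94, the 25th percentile of those genes. In steps of the deposited height, of which each library has its own size, the 28 spanned 70 to 1927 steps in replicate 1 and 43 to 1603 in replicate 2. On the log2 scale, replicate 2 over replicate 1 had a median of 0.15 in the 28 genes, from -0.28 to 0.74, against -0.05 in all accessible genes.

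**Figure D3:**
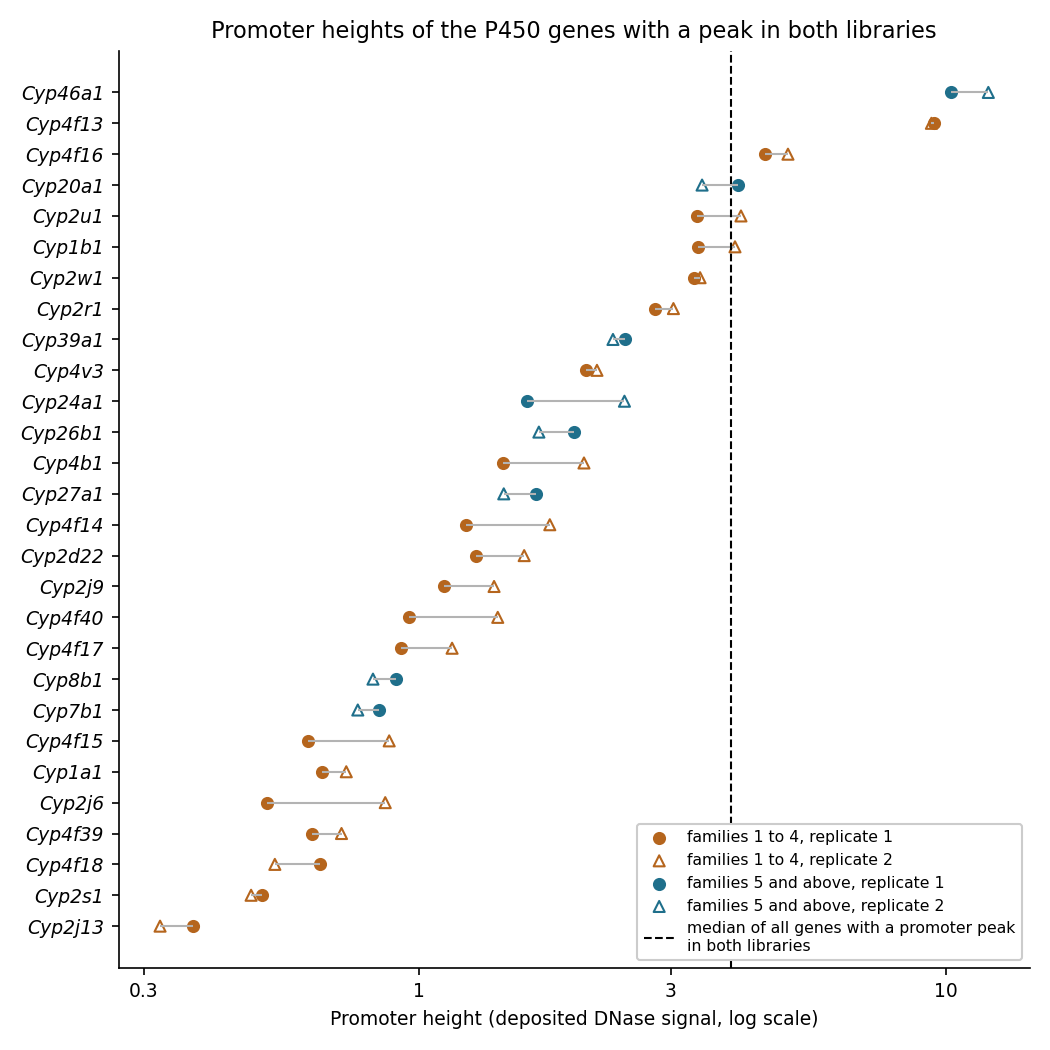
Promoter heights (deposited DNase signal, log scale) of the 28 P450 genes with a peak in both libraries, replicate 1 as filled circles and replicate 2 as open triangles, coloured by family group, with the median of all genes with such a peak (3.90) as a dashed line. Cyp46a1 and Cyp4f13 stand far to the right of the others, and by mean height Cyp4f16 is the only other one beyond the dashed line.

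Genes of sterol and bile acid turnover were accessible in 5 of 6 cases, where 64.5% of all genes were. Cyp46a1, the cholesterol hydroxylase best known from neurons, had heights of 10.2 in replicate 1 and 12.0 in replicate 2 (11.1 ± 1.27, SD, n = 2), which ranked 87 of 14069. Its region (chr12:108333981-108334360) ended 21 bp before the start and held 40 CpG. Overlapping footprints numbered 8 and covered 42.4% of its bases. Of 12 motif matches in it, 7 lay wholly under them, 5 of GGGCGG and 2 of GCGTG. Cyp39a1 adds a hydroxyl group to the product of Cyp46a1. Its region had heights of 2.46 and 2.33 and lay 125 bp before its start, but closer to a start of the neighbour Slc25a27, so it may belong to either gene. Cyp27a1, the mitochondrial sterol hydroxylase, had 1.67 and 1.45, and Cyp7b1, an oxysterol hydroxylase, had 0.839 and 0.765. Cyp8b1, which sets the share of cholic acid in bile, had 0.903 and 0.817, and its TATAAA and an NR5A1 match lay 29 and 24 bp before its start, neither under a shared footprint. Cyp7a1, the rate-limiting enzyme of bile acid synthesis, had no peak within 1 kb in either library, and the closest were at 50051 bp in replicate 1 and 9731 bp in replicate 2.

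Vitamin D genes were accessible in 2 of 3 cases, close to the 64.5% of all genes. Cyp2r1, which makes the circulating form of the vitamin, had heights of 2.80 and 3.04. Cyp24a1, which inactivates it, had 1.60 and 2.45, a log2 difference of 0.61 that only Cyp2j6 exceeded among the 28 genes, in a region 256 bp before its start with a start of Pfdn4 within 1 kb. Cyp27b1, the activating enzyme known from kidney, had its nearest peak 6210 bp away in both libraries. Of the retinoic acid hydroxylases, Cyp26b1 had 1.96 and 1.69, at an internal start. Cyp26a1 had 0.465 in replicate 2 and none in replicate 1, where its nearest peak was 4706 bp away. Cyp26c1, beside it, had its nearest peaks 16923 and 2460 bp away. Cyp19a1, the aromatase that makes oestrogens, had no promoter peak, and its nearest region lay 11862 bp away inside the gene at 0.876 and 1.63. Cyp20a1, an orphan P450 without a well established substrate, had 4.03 and 3.44.

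Cyp1b1, which oxidises oestradiol and aromatic hydrocarbons, had heights of 3.38 and 3.97 in a region 580 bp upstream of its start. It held 3 GCGTG matches and 2 of GGGCGG, none wholly under a shared footprint. Shared footprints covered 34 bases in 4 places, the longest being the run of capitals near the middle of the printed sequence. Cyp1a1, the classical target of the aryl hydrocarbon receptor, had its tallest region inside the gene, 893 bp upstream of the second of its annotated starts (chr9:57696377-57696720), at only 0.653 and 0.727. Lower peaks, of 0.483 in replicate 1 and 0.435 in replicate 2, lay 313 and 262 bp from its first start. That region held 4 GCGTG matches at -1206 to -895 bp from the start, of which 2 are in the printed part, and no footprints that overlapped between the libraries. Cyp1b1 was thus the taller in both libraries.

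The Cyp4f genes, which omega-hydroxylate fatty acids and leukotrienes, had the largest share of accessible promoters among subfamilies of at least 5 genes, with Cyp2j, at 3 of 8, next. Of 9 genes 8 (88.9%) had a peak in both libraries, where 64.5% of all protein-coding genes had one. Of these 8 genes, 7 stood in an array of 495 kb on chromosome 17 (chr17:32452723-32947402). That array held 27 shared regions, or 5.46 per 100 kb. The array also holds 4 protein-coding genes of other kinds, 3 of them accessible, so some of its regions lie at those. Cyp4f13 was by far the tallest, with heights of 9.47 and 9.37 (9.42 ± 0.0690, SD, n = 2), ranking 376. Its footprints of both libraries covered 50.6% of the 180 bp region. Cyp4f16 followed with 4.53 and 5.01. The others were much lower, in order Cyp4f14 with 1.23 and 1.77, Cyp4f40 with 0.956 and 1.41, Cyp4f17 with 0.924 and 1.15, Cyp4f15 with 0.616 and 0.877, and Cyp4f39 with 0.627 and 0.712. In that order Cyp4f14, Cyp4f40 and Cyp4f17 overlapped their neighbours between libraries, as did Cyp4f15 and Cyp4f39. Cyp4f18, on chromosome 8 away from the array, had 0.648 and 0.532.

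**Figure D4:**
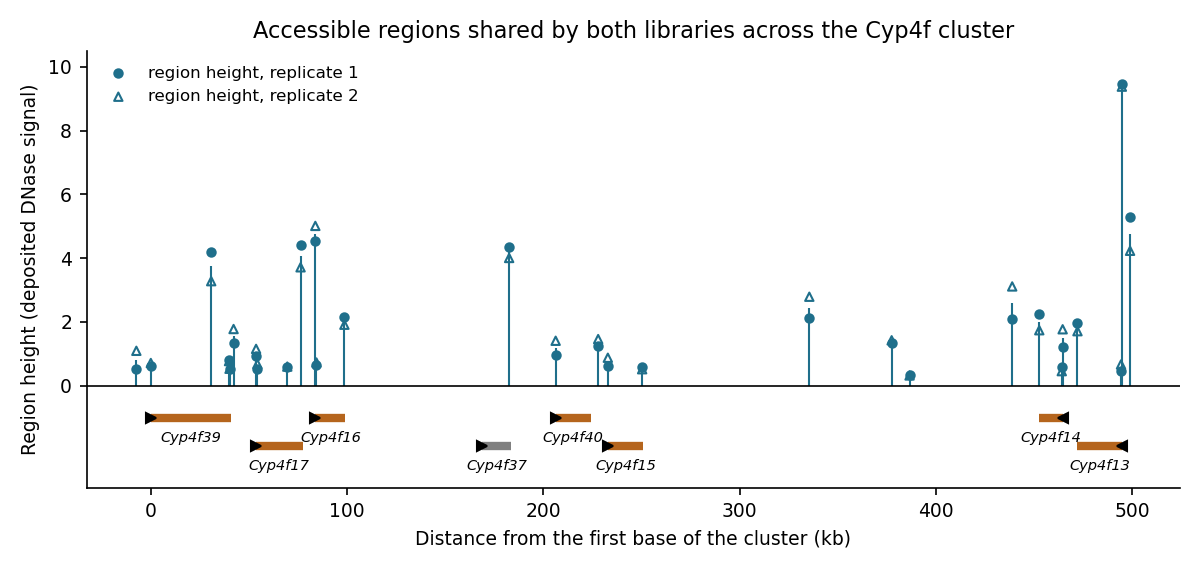
Heights of regions shared by both libraries (deposited DNase signal, replicate 1 as filled circles, replicate 2 as open triangles, lines to their mean) along the Cyp4f array, in kb from its first base, with genes below (brown where the promoter had a peak in both libraries, grey where not, arrowheads at the 5′ end). Cyp4f13 reaches 9.42, and the single region of Cyp4f37 lies near the far end of the gene, not at its start.

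In the printed Cyp4f stretches, 36 bases of Cyp4f13, 8 of Cyp4f14, 24 of Cyp4f15 and 41 of Cyp4f16 lay under footprints of both libraries, and none of Cyp4f18 or Cyp4f37. Cyp4f37 matched Cyp4f16 at 93 of 97 bases (95.9%), and at 97.6% over 545 aligned bases around the start, yet it had no promoter peak in either library, while Cyp4f16 did. Its nearest region lay 13852 bp away, inside the gene, with heights of 4.35 and 4.005. In each of these stretches 57.6% of 32-base words occurred once in the genome, the same share in both genes. The part of lost reads in the difference was not tested. The others matched Cyp4f16 less, with 75.8% of aligned bases for Cyp4f13, 68.8% for Cyp4f18, 68.6% for Cyp4f14 and 68.5% for Cyp4f15. All 6 stretches hold CCAAT on the opposite strand, read as ATTGG in the lines above. The aligned parts of Cyp4f17, Cyp4f39 and Cyp4f40, which were accessible too, hold none. In Cyp4f13 and Cyp4f15 the letters AAGGCCA, read as TGGCCTT in the printed strand, lay under a footprint of both libraries, 82 and 88 bp before the start. The stretches of Cyp4f14, Cyp4f16, Cyp4f18 and Cyp4f37 have no match. Outside its stretch, Cyp4f14 had one under a shared footprint, 83 bp after 1 of its starts. These were the only NR5A1 matches wholly under shared footprints among 8 in the tallest promoter regions of the 28 genes. Over those regions, 20 of 103 motif matches lay wholly under shared footprints, 7 of them in Cyp46a1. Footprints that overlapped between the libraries were found in the tallest region of 22 of the 28 genes. Neither share was computed for all accessible genes, so these counts do not set the P450 genes apart.

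The remaining accessible genes of families 2 and 4 were spread over the genome. Cyp2u1, a fatty acid hydroxylase, had heights of 3.36 and 4.08. Cyp2w1, in humans an enzyme of colon tumours, had 3.32 and 3.41 in a region 745 bp after 1 of its starts. Cyp4v3, whose human counterpart hydroxylates fatty acids in the eye, had 2.07 and 2.17, and Cyp4b1, which oxidises fatty acids and plant toxins, had 1.44 and 2.05. Cyp2d22 had 1.28 and 1.58, the only one of its subfamily. Of the Cyp2j epoxygenases of arachidonic acid, Cyp2j9 had 1.12 and 1.39, Cyp2j6 0.515 and 0.862, and Cyp2j13 0.372 and 0.322. Cyp2s1 had 0.504 and 0.480, close to the lowest of the set, Cyp2j13. Of these genes Cyp2j6 had the widest log2 difference between the libraries, 0.74.

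Peaks of 1 library were low. Cyp2b10, the gene that the receptor CAR induces in liver, had 0.772 in replicate 2, and its nearest peak in replicate 1 lay 2160 bp away. Cyp2f2, which activates naphthalene in lung, had 0.390 in replicate 2, and in replicate 1 a peak 1400 bp away. Cyp3a13 had 0.225 in replicate 2. Cyp2a5 had 0.250 and Cyp4x1 0.260, both in replicate 1. Of the accessible genes, Cyp2w1, at 745 bp, was the one whose call rested on a region over 500 bp from every start. Just outside the 1 kb limit were Cyp4a14, with a peak of 0.442 at 1441 bp in replicate 2, and Cyp2j12, with one of 0.239 at 1578 bp in replicate 1.

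Distal regions, over 1 kb from every protein-coding start, lay within 50 kb of 56 of the 88 genes (63.6%), where 78.1% of all genes had one. The median was 1 region per P450 gene, against 2 for all genes. With the peaks of 1 library alone it was 2 in replicate 1 and 3 in replicate 2. In shared regions it was 3 for accessible P450 genes, as for all accessible genes, and 1 for the others, as for all others. Counted once, there were 124 such regions, with a median height of 1.24, against 0.976 for all 43093 distal regions. A P450 start was the nearest for 80 of them (64.5%), 34 had their centre inside a P450 gene of the set, and 39 were counted for more than 1 of the genes.

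Cyp2s1, with the second lowest promoter, had the most distal regions, 9, of which 7 had its start as the nearest. The tallest (chr7:25848101-25848260) had 4.83 and 5.08 and lay 31188 bp upstream. Cyp46a1 had 8, of which 5 were nearest to it, and the tallest lay 1081 bp upstream at 4.60 and 3.37, with another 29520 bp downstream at 3.83 and 3.42. Cyp26b1 had 7, all nearest to its own starts and 5 inside the gene. They were led by one inside the gene, 1763 bp upstream of an internal start, at 4.99 and 5.87, taller in both libraries than its promoter region. Cyp2t4 and Cyp4f17 had 7 each, of which 1 and 3 were nearest to their own starts. The tallest of Cyp2t4, whose promoter was closed, lay 4819 bp after the start at 4.06 and 2.83, inside Egln2. Cyp1a1 and Cyp1a2 had 6 each, all nearer to starts of Csk, Edc3 or Clk3. The tallest of any distal region within 50 kb of a P450 gene was one of these, at 7.98 and 7.47, 2230 bp from Csk.

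**Figure D5:**
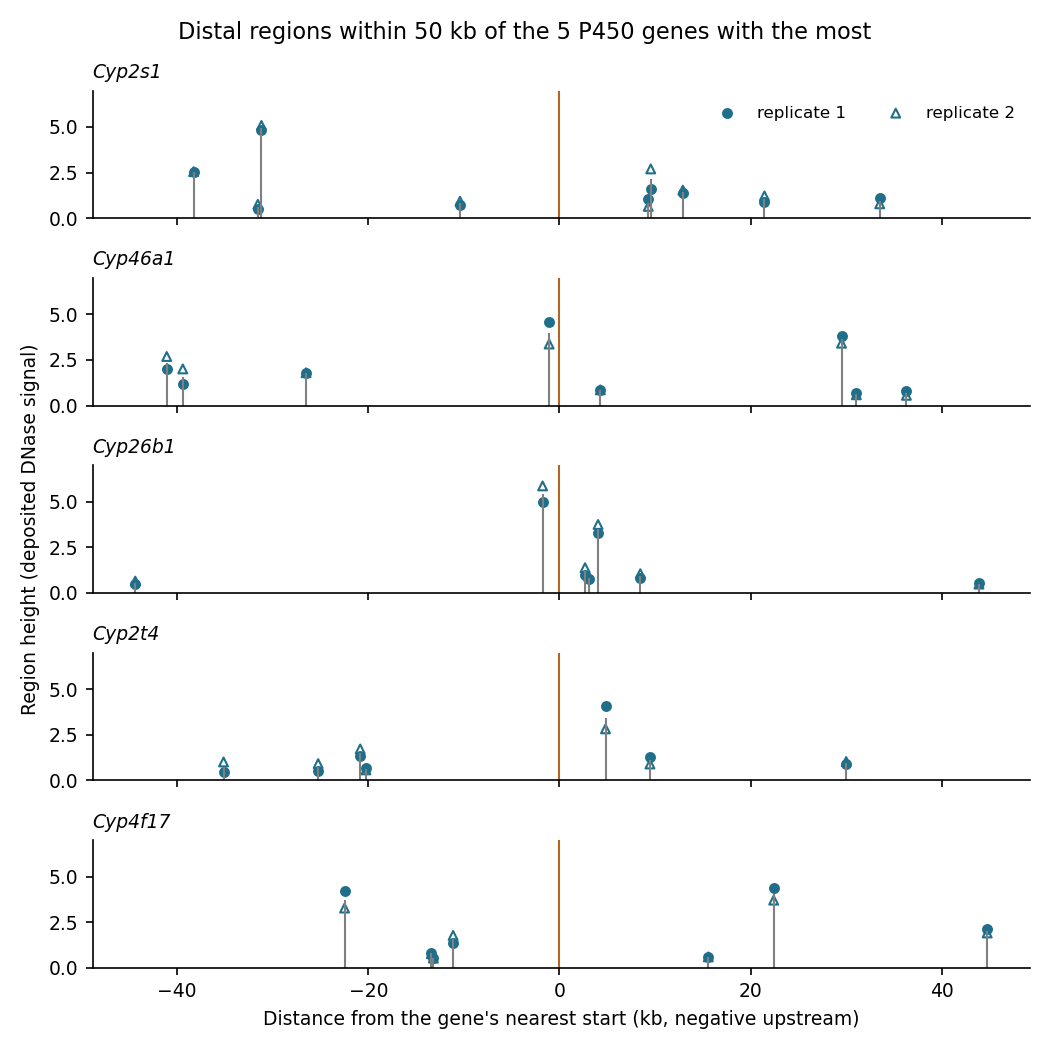
Distal regions within 50 kb of the 5 P450 genes with the most, by distance from the nearest start of the gene (kb, negative upstream) and height (deposited DNase signal) in replicate 1 (filled circles) and replicate 2 (open triangles). The region 1763 bp upstream of an internal start of Cyp26b1 reaches 5.87, and that 31188 bp upstream of Cyp2s1 reaches 5.08.

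Genes of electron supply and heme turnover that P450 enzymes depend on were all accessible, where 64.5% of all genes were. All 11 had a promoter peak in both libraries, with a median height of 5.88. Por, the oxidoreductase that feeds microsomal P450s, had 8.63 and 8.86. Alas1, the rate-limiting enzyme of heme synthesis, had 8.24 and 7.88. Of 24 regulators of P450 genes 20 (83.3%) were accessible. Those without a promoter peak in either library included Nr1i2 and Nr1i3, which encode the drug receptors PXR and CAR, and Hnf4a, a nuclear receptor of liver cells. Ahr had 2.69 and 3.30 and Arnt 3.07 and 3.66. Of 12 P450 genes that the symbol rule leaves out, 6 were accessible. They included Cyp11a1, which cuts the cholesterol side chain, with 3.09 and 2.16 (mean 2.63). It was lower in both libraries than Cyp46a1 and Cyp4f13, the 2 tallest of the set. Its mean was above 1.53, the median of the 28 accessible genes of the set. The other steroid genes were not: Cyp11b1 (mean 1.37) and Cyp11b2 (mean 0.212) were below that median. Cyp17a1 and Cyp21a1 had no promoter peak in either library. Cyp51, of cholesterol synthesis, had 4.87 and 3.77.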

How the data were processed

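DNase-seq was run on adrenal gland, 2 libraries of 1 group. Per the deposited file index, peaks and footprints were called by the authors for each library on mm10. For aligner and callers, names and versions were not given in the sources used here. The height in the deposited peak lists is a depth-scaled signal that comes in steps, of 0.00531 in replicate 1 and 0.00750 in replicate 2, and 100% of those below 500 steps were whole within 0.05. What a step is in reads is not stated, so depth is unknown. The score in the deposited footprint lists is constant and was not used. The false discovery rate (q-value) deposited by the authors lists positions under 0.05 only.

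The longer peak list of each library was used. Peaks overlapping by at least 1 bp between libraries were merged into regions. Starts were 54250 starts of protein-coding transcripts of 21805 genes in GENCODE vM21, chromosomes 1 to 19, X and Y, without 48 records of ambiguous symbol. The tallest region within 1 kb of a start gave a gene's height, with the mean and SD of 2 libraries. An absent peak is one not listed. Counts were set beside all genes, with no test. Counting was tested on simulated data with planted peaks. Python 3.11.15, pandas 2.3.3, pysam and Biopython 1.88 were used. Identity of Cyp4f promoters came from local alignment of 500 bases before to 100 after each 5′ end. Sequences are those of the reference, and alleles of the hybrid were not examined.

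The genes and lists were chosen with earlier results of these data known. Named were all genes with a promoter peak in both libraries or in 1, the 5 with the most distal regions, and closed genes by array or, from family 5 up, with their nearest peak. Cyp1a2, Cyp2e1, Cyp4a14, Cyp2j12 and Cyp4f37 were named after their values were seen. CpG classes, unique words and the Cyp4f alignment were added after seeing the data. Alternatives covered each library alone, the shorter list, window sizes, start sets, peak height and overlap.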

Additional observations from a re-analysis of the deposited data

How the results depend on the processing

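Of 55 alternative values of summary results, 48 stayed within 1.5 times or the spread between the libraries. All 107 of single promoter heights stayed within the SD of the libraries, but this says nothing of how stable they are. Each library alone always lies within the SD of 2 libraries from their mean, and the other alternatives reuse the same heights. The 28 accessible P450 genes became 30 and 32 with replicate 1 and replicate 2 alone, 23 with the shorter list and 21 with peaks above the median height of their library, against 66.6%, 67.3%, 59.9% and 58.2% of all genes. At 5 kb there were 34 (38.6%), against 70.7% of all genes. The 6 more included Cyp2t4 and Cyp1a2, whose nearest peaks were those by the first start of Cyp1a1. The shorter list lost Cyp2j13, Cyp2s1, Cyp4f15, Cyp4f18 and Cyp8b1. With peaks above the median height, families 1 to 4 had 13 genes in place of 20, since 7 low promoters fall out by construction. Without one replicate the median number of distal regions was 2 to 3 in place of 1. It was 0 at 20 kb, where 36 genes had a distal region, and 2 at 100 kb. The same values were not counted for all genes at these windows, so they do not set the P450 genes apart. With the shorter list the median height of the genes left was 1.83 in place of 1.53, since those 5 low promoters fall out. Genes with at least 90% unique words, a limit chosen after seeing the data, kept 26 of the 28. No paired analysis was possible because the libraries form 1 group. Low promoters, such as Cyp2j13 and Cyp2s1, and peaks of 1 library are at the limit of what these lists resolve.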
